A study of Mus musculus with 6 samples.

Results

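The kinases described here are ZAP-70, SYK, TXK, TEC and BTK, the products of the mouse genes Zap70, Syk, Txk, Tec and Btk. Every probe set that the array annotation assigned to 1 of these genes and to no other was taken, which gave 10 of the 45037 probe sets tested: 3 for Zap70, 4 for Syk and 1 each for Txk, Tec and Btk. Affymetrix arrays were hybridized with RNA of splenic T cells, enriched by removing other cells from the suspension of each spleen. The mice were C57BL/6 males, 10 weeks old. Of 6 arrays, 3 came from mice without the microRNA miR-142 (KO) and 3 from wild-type littermates (WT), each array from a separate mouse. The labels do not say how the miR-142 locus was disrupted or whether it was missing from all cells, and all mice shared strain, sex and age. The values are log2 intensities, so a difference of 1 is a doubling, and differences are given as KO minus WT.

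SYK and ZAP-70 form 1 kinase family. Each carries a tandem pair of SH2 domains that dock on receptor chains whose tyrosine motifs, called ITAMs, have been phosphorylated by Src family kinases. ZAP-70 works downstream of the T cell receptor and is found in T and NK cells, whereas SYK serves the B cell receptor and the Fc and lectin receptors of myeloid cells. The Tec family kinases act a step later: they are activated at the membrane after receptor engagement and phosphorylate phospholipase C gamma. TXK, also called RLK, is a Tec family kinase of T cells that lacks the lipid-binding PH domain of its relatives, BTK is the member of B cells and myeloid cells, and TEC is expressed in several blood lineages.

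The mature sequences of miR-142 are shown as printed by RefSeq on GRCm38.p6 (chromosome 11, plus strand), because the genotype is named for this microRNA. Their levels were not measured here. Capitals mark the seed, bases 2 to 8, with which a microRNA pairs to its targets.
mmu-miR-142a-5p: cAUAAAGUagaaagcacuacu
mmu-miR-142a-3p: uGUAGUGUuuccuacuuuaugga

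Some facts of the arrays bear on all values that follow. Defining T cell markers were bright in every array, and all 10 measured genes of the T cell marker list fell in KO: their mean level was 12.38 to 12.41 in WT and 9.71 to 11.04 in KO, lowest in KO replicate 2. Markers of neutrophils rose for 11 of 13 genes (mean level 6.26 to 7.23 in WT, 10.11 to 12.78 in KO), those of mast cells, basophils and eosinophils for 11 of 13 (5.74 to 5.81 against 9.36 to 9.79), those of monocytes and macrophages for 9 of 10 (5.66 to 6.13 against 8.37 to 8.99), those of erythroid cells for 7 of 8 (7.14 to 7.57 against 9.60 to 10.60) and those of megakaryocytes and platelets for 5 of 7 (5.78 to 6.01 against 7.04 to 7.35). Over all genes at their brightest probe set 18.6% rose and 18.6% fell. Mmp8 and Mmp9 of the neutrophil list and the dim Ccr3 and Il5ra of the mast cell, basophil and eosinophil list were not called. By limma 0 of 9 B cell markers rose (2 at an unadjusted p below 0.05) and 1 fell, with mean levels of 6.69 to 6.99 in WT and of 7.45, 8.61 and 7.0 in KO replicates 1, 2 and 3. Of 6 NK cell markers 4 fell and 0 rose by limma, 0 also at an unadjusted p below 0.05 (9.60 to 9.85 in WT, 8.14 to 9.05 in KO). The 4 were Klre1, Eomes, Gzma and Klrd1. Nkg7 was not called, nor was Ncr1, which was dim at 4.55 in WT and 4.68 in KO. Like the T cell list, the NK cell list was lowest in KO replicate 2, at 8.14. Whether NK cells themselves were fewer was not tested. The hybridization controls, transcripts added in fixed amount, averaged 10.10 to 10.30 in WT and 9.80 to 9.91 in KO, and the 3' minus 5' difference of Actb, a sign of RNA integrity, was 0.163 to 0.228 in WT and 0.318 to 0.397 in KO. KO replicate 1 stood apart in its probe sets of 18S ribosomal RNA, at 7.86 where the other KO arrays had 9.15 and 9.19 and the WT arrays 9.47 to 9.66. Its 3' minus 5' difference of Gapdh also stood apart, at 0.18 against -0.07 and -0.10 in KO replicates 2 and 3 and -0.18 to -0.15 in WT. Without KO replicate 1 the kinase calls of the brightest probe sets were kept. The part of cell composition and RNA quality in the kinase values was not tested, and in bulk RNA fewer cells of a type and less RNA per cell cannot be told apart.

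Of the 10 kinase probe sets, 3 rose and 4 fell in KO (limma, Benjamini-Hochberg adjusted p below 0.05 over all probe sets). By that rule 13.9% of all probe sets rose and 15.5% fell. With arrays scaled to the hybridization controls 5 kinase probe sets rose and 4 fell, against 38.4% and 5.19% of all. The probe sets that rose belonged to Syk and Btk, and those that fell to Zap70, Txk and Tec. Taking each gene at its brightest probe set, 2 of the 5 genes rose and 3 fell, where 18.6% of 18193 genes rose and 18.6% fell. The 3 KO values all exceeded the WT values for 4 of the kinase probe sets and all stayed under them for 4, and the groups overlapped for 2, whereas over all probe sets 18.5% lay entirely above and 27.4% entirely below.

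**Figure D1:**
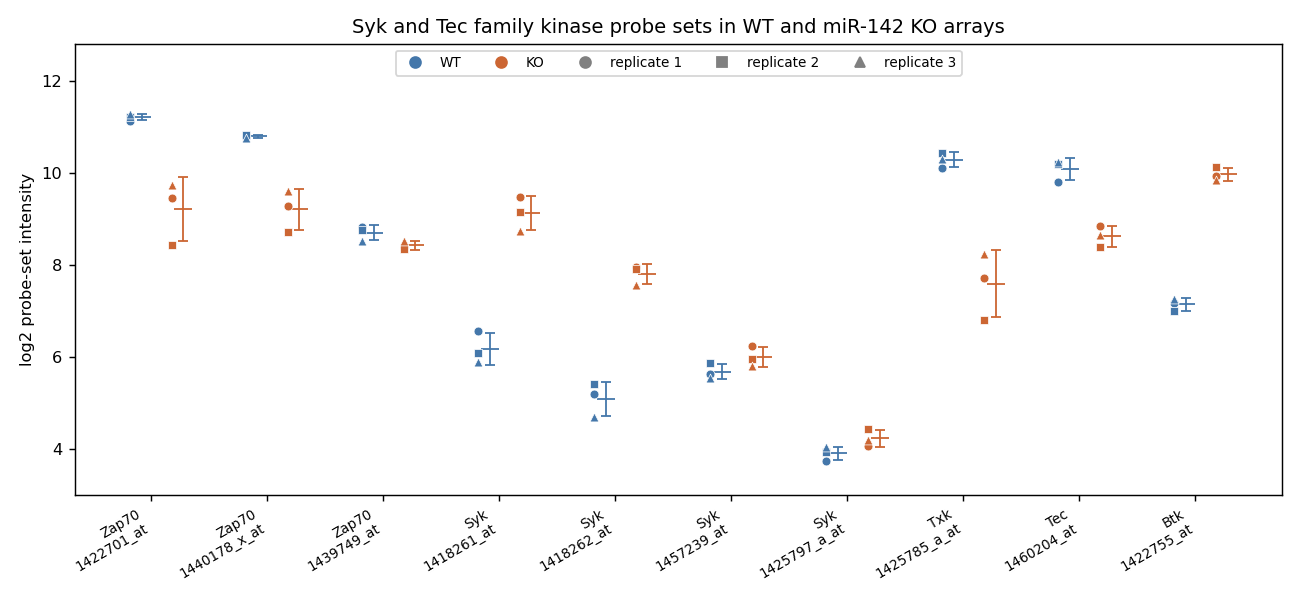
Log2 intensity of the 10 kinase probe sets (y axis) in the WT arrays (blue) and KO arrays (orange). Each point is an array, its shape gives the replicate, and the bars are the mean and SD (n = 3 per group). The KO points lie below the WT points for 2 probe sets of Zap70, for Txk and for Tec, and above them for 3 probe sets of Syk and for Btk.

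ZAP-70 is the kinase that the phosphorylated chains of the T cell receptor recruit. On its brightest probe set, 1422701_at, Zap70 measured 11.13, 11.21 and 11.27 in the WT arrays and 9.45, 8.42 and 9.74 in KO replicates 1, 2 and 3. The groups did not overlap, and KO replicate 2 was the lowest array. Zap70 fell 4.0-fold, from 11.20 ± 0.07 (SD, n = 3) to 9.20 ± 0.69, a difference of -2.0 ± 0.31 (SE; limma adjusted p = 0.00257). A second probe set, 1440178_x_at, whose suffix marks probes that can also bind other transcripts, fell 3.01-fold from 10.79 ± 0.03 to 9.20 ± 0.45 (limma adjusted p = 0.00120). The third, 1439749_at, measured 8.82, 8.76 and 8.51 in WT and 8.39, 8.35 and 8.52 in KO. There the groups overlapped, and the difference of -0.28 (95% interval -0.54 to -0.03) was not called (limma adjusted p = 0.0961). Its difference turned to 0.085 when arrays were scaled to the hybridization controls, so the Zap70 probe sets do not all show the fall.

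TXK is the Tec family kinase of T cells named above. Its probe set, 1425785_a_at, whose suffix marks probes shared by transcripts of 1 gene, measured 10.11, 10.43 and 10.31 in WT and 7.71, 6.80 and 8.24 in KO. The KO arrays lay below all WT arrays, in the same order as for Zap70, with KO replicate 2 lowest and KO replicate 3 highest. Txk fell 6.48-fold, from 10.28 ± 0.16 (SD, n = 3) to 7.58 ± 0.73, a difference of -2.70 ± 0.33 (SE; limma adjusted p = 9.1e-04).

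TEC, the founding member of its family, fell too, although it is not particular to T cells. Tec measured 9.80, 10.19 and 10.23 in WT and 8.84, 8.38 and 8.64 in KO. The groups did not overlap, and the KO arrays were more alike than for Zap70 and Txk. Tec fell 2.74-fold, from 10.07 ± 0.24 (SD, n = 3) to 8.62 ± 0.23, a difference of -1.46 ± 0.16 (SE; limma adjusted p = 6.2e-04).

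SYK, the relative of ZAP-70 in B cells and myeloid cells, went the other way. On its brightest probe set, 1418261_at, Syk measured 6.55, 6.09 and 5.87 in WT and 9.48, 9.15 and 8.73 in KO. All KO arrays lay above all WT arrays, and WT replicate 1 and KO replicate 1 were the highest of their groups. Syk rose 7.75-fold, from 6.17 ± 0.34 (SD, n = 3) to 9.12 ± 0.38, a difference of 2.95 ± 0.23 (SE; limma adjusted p = 1.4e-04). The second Syk probe set, 1418262_at, rose 6.54-fold from 5.09 ± 0.37 to 7.80 ± 0.22 (limma adjusted p = 1.1e-04). In contrast, the other two were not called as deposited. Probe set 1457239_at measured 5.67 ± 0.17 in WT and 5.99 ± 0.22 in KO with overlapping groups (difference 0.32, 95% interval -0.01 to 0.65, limma adjusted p = 0.134). Probe set 1425797_a_at, dimmer than most at 3.89 ± 0.15 and 4.22 ± 0.18, did not overlap between groups but was not called either (difference 0.33, 95% interval 0.04 to 0.62, limma adjusted p = 0.0914). Both rose under scaling to the hybridization controls, by 0.69 and 0.70. The deposited values hold no detection calls. In WT, 1418261_at lay above the array medians of 5.70 to 5.77, 1457239_at near them, and 1418262_at and 1425797_a_at under them. RMA understates differences near and under such levels.

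BTK, the Tec family kinase of B cells and myeloid cells, rose as well, with the smallest SE among the brightest probe sets of the 5 genes. Btk, an X-linked gene compared here between males only, measured 7.16, 6.99 and 7.26 in WT and 9.92, 10.13 and 9.84 in KO. The groups lay far apart, and KO replicate 2, the array lowest in Zap70 and Txk and highest in the mean of the B cell markers, was the highest. Single B cell markers differed there: Ebf1 and Vpreb3 stood at 11.22 and 12.12 in that array, whereas Ms4a1 and Fcrla had their lowest values of all arrays. Btk rose 7.09-fold, from 7.14 ± 0.14 (SD, n = 3) to 9.96 ± 0.15, a difference of 2.82 ± 0.11 (SE; limma adjusted p = 1.6e-05).

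The kinases were then compared as T cell members (Zap70 and Txk) against myeloid and B cell members (Syk, Tec and Btk), each gene centred on its WT mean. The mean of the former minus that of the latter was -0.16, 0.11 and 0.05 in the WT arrays and -3.78, -4.56 and -3.03 in KO replicates 1, 2 and 3, so KO was lower by 3.79. No test was made of this value, since the members were chosen with results known. Tec did not follow the grouping: it fell, whereas Syk and Btk rose. With Tec counted beside Zap70 and Txk, a choice made after seeing the data, the value was -4.94, and with Tec left out it was -5.24. The opposite directions hold for the brightest probe sets of all 5 genes under each scaling tried and without any single array.

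**Figure D2:**
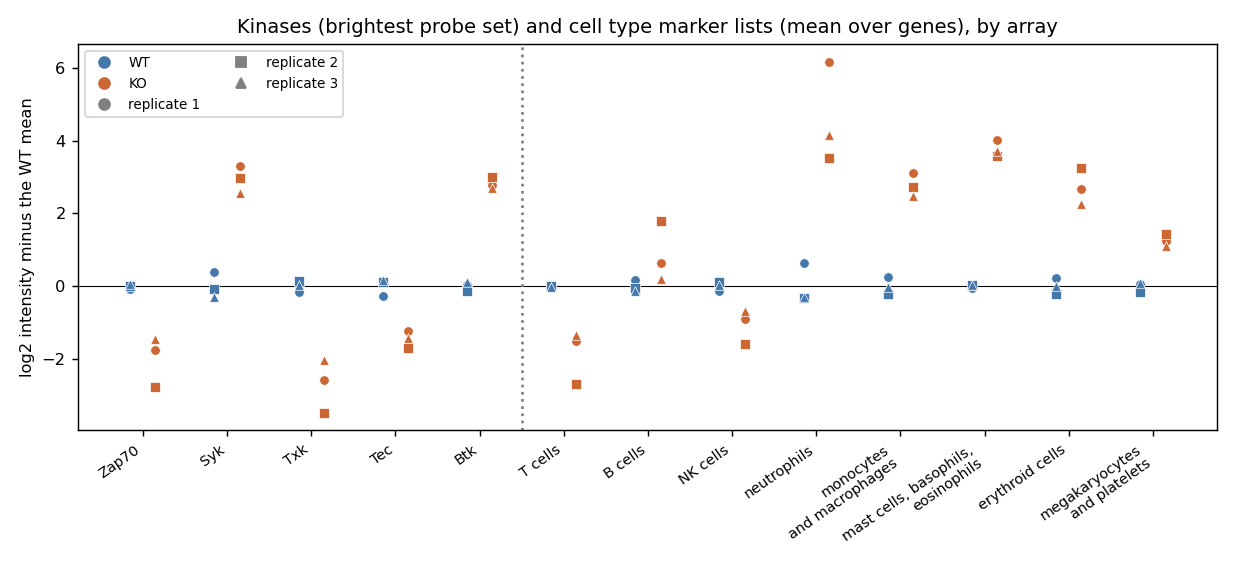
Log2 intensity minus the WT mean (y axis) for the brightest probe set of each kinase (left of the dotted line) and for the mean of each cell type marker list (right), by array. Zap70, Txk and Tec lie below 0 in KO as the T and NK cell lists do. Syk and Btk lie above 0 as the neutrophil, monocyte, mast cell, erythroid and megakaryocyte lists do, and the B cell list lies at 0.19 to 1.79. KO replicate 2 (square) is lowest for Zap70, Txk, Tec and the T cell list.

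The falls of the 3 kinases were set beside that of the T cell markers. After the mean of the 10 T cell markers was taken off each array, a step added after seeing the data and given without a test, Zap70 lay at -0.25, -0.10 and -0.12 in the KO arrays relative to its WT mean, where the WT arrays spread from -0.09 to 0.08. The brightest Zap70 probe set was thus lower by 0.16 ± 0.08 (SD, n = 3) in place of 2.0, and every KO array still lay under the WT arrays, the nearest values being -0.10 and -0.09. The second Zap70 probe set turned to 0.25 ± 0.33, with overlapping groups. The third turned to 1.56 ± 0.67, with KO arrays at 1.19, 2.33 and 1.17 above all WT arrays (-0.17 to 0.10), so the 3 probe sets of Zap70 did not give 1 direction. The marker mean was lower in KO by 1.84, and a probe set that did not differ as deposited is raised by that much here. Txk stayed lower in each KO array, at -1.07, -0.79 and -0.69 against -0.19 to 0.15 in WT, a mean of -0.85 ± 0.20. Tec lay at 0.27, 0.99 and -0.09 in KO against -0.29 to 0.17 in WT, so its groups overlapped and its mean of 0.39 ± 0.55 had turned in sign. Probe sets differ in how far they compress differences, so these values describe these probe sets and not transcripts per T cell.

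**Figure D3:**
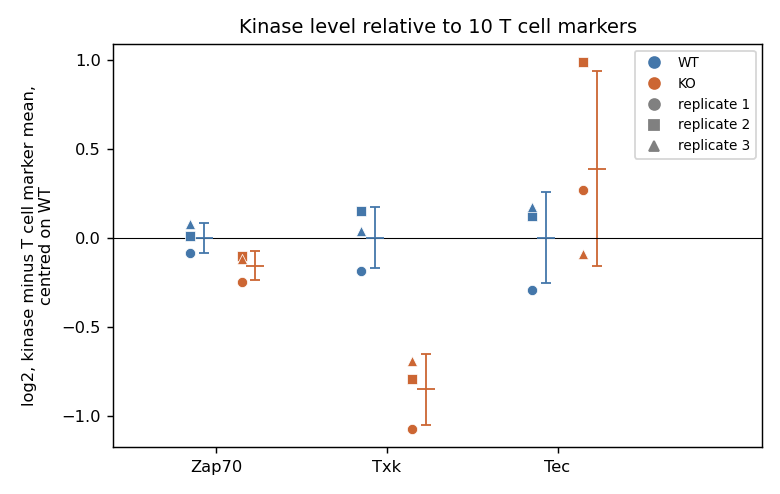
Log2 intensity of Zap70, Txk and Tec (brightest probe sets) minus the mean of 10 T cell markers on the same array, centred on WT (y axis). Points are arrays, bars are the mean and SD (n = 3 per group). Txk lies lower in all KO arrays by 0.69 to 1.07, Zap70 by 0.10 to 0.25, and the Tec groups overlap.

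Genes that act around these kinases moved in both directions. Over the 64 measured genes of 8 pathway lists, written from general knowledge, 16 rose, 30 fell and 18 were not called, with a median difference of -0.18 against -0.06 over all genes. Over all genes 18.6% rose and 18.6% fell, so the rising share of these lists was nearer to that background than the falling one. In the same arrays the marker lists of neutrophils, monocytes, mast cells, erythroid cells and megakaryocytes were higher and those of T and NK cells lower, as given above. Within the NK cell list Ncr1 and Nkg7 were not called.

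**Figure D4:**
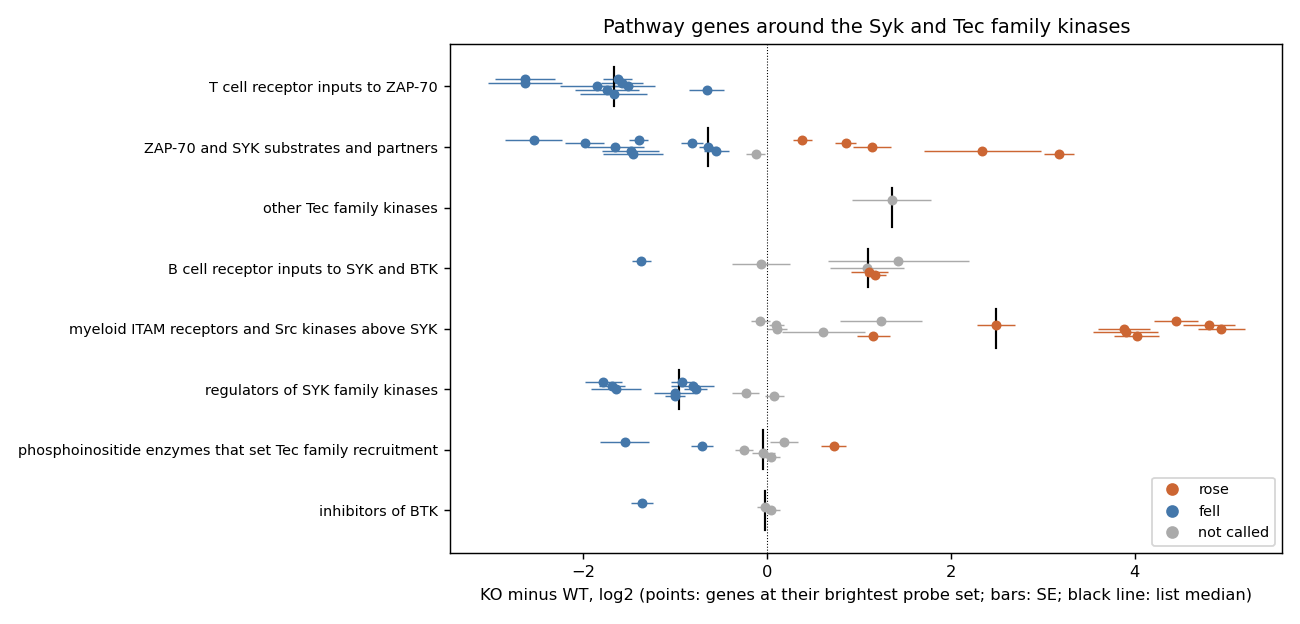
KO minus WT difference on the log2 scale (x axis) of the genes in 8 lists around the kinases (y axis). Points are genes at their brightest probe set with the SE, the black line is the list median, and colour gives the call. The T cell receptor list lies wholly below 0 with a median of -1.66, and the myeloid ITAM list has a median of 2.49.

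Among the inputs to ZAP-70, which were receptor chains, coreceptors, the kinase gene Fyn and the phosphatase gene Ptprc, 9 of 9 measured genes fell, with a median of -1.66. Cd247, the zeta chain on which ZAP-70 docks, fell from 11.92 ± 0.14 (SD, n = 3) to 9.29 ± 0.74 (limma adjusted p = 0.00105), and another pair of its probe sets fell by 2.42 and 2.99, while a dim one differed by -0.22 and was not called. Cd8b1 and Cd8a, the CD8 coreceptor chains, fell by 2.63 and 1.85, and Cd3d, a CD3 chain, by 1.74. Of these genes 3 (Cd3d, Cd3e and Cd3g) are also in the T cell marker list. Without WT replicate 1 the falls of Cd3e and Ptprc were no longer called, which left 7, and that of Ptprc was not called without WT replicate 2 or 3 or under hybridization-control scaling either.

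The substrates and partners of ZAP-70 and SYK moved both ways: 5 of 15 rose and 9 fell, with a median of -0.64. Plcg2, the phospholipase C gamma that BTK phosphorylates, rose by 3.18 ± 0.16 (SE, n = 3 per group) from 7.45 to 10.63 (limma adjusted p = 3.3e-05). Its T cell counterpart Plcg1, named as its pair after its values were seen, fell by 1.39. Blnk, the adaptor that SYK phosphorylates in B cells, rose by 2.34 ± 0.63, with KO arrays at 7.59, 9.73 and 7.19, KO replicate 2 being the highest, and by 1.56 without that array. That call was lost without WT replicate 2 or 3 and with trended robust moderation, and without WT replicate 2 only 3 genes of this list rose. Skap1 and Grap2, adaptors of the T cell receptor pathway, fell by 2.54 ± 0.31 and 1.98 ± 0.21. Grb2, an adaptor used by most cells, was not called at -0.12 ± 0.10.

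Among the receptors and kinases above SYK in myeloid cells 8 of 13 rose and 0 fell by limma, with 0 falls also at an unadjusted p below 0.05 and a median of 2.49. Fcgr1 is also in the monocyte list, and Fcer1a and Ms4a2 in that of mast cells. Fcer1a and Ms4a2, chains of the high-affinity IgE receptor, rose by 4.94 ± 0.25 (SE, n = 3 per group) and 4.02 ± 0.24. Tyrobp, the ITAM adaptor DAP12, rose by 4.81 ± 0.28, and Fcgr3, an IgG receptor, by 4.45 ± 0.24. Fcgr1, Fcgr4, Oscar, Siglech and Fgr were not called, with differences of 0.10, 1.24, -0.07, 0.11 and 0.61. KO replicate 1 was the highest array for Fcgr4 (7.65 against 5.98 and 5.76 in the other KO arrays) and for Fgr (8.57 against 6.65 and 6.93). Fcgr4 was called when any 1 KO array was left out, at 0.65 without KO replicate 1 (limma adjusted p = 0.00727), and under hybridization-control scaling, where Fcgr1 and Siglech were called too. Among the B cell receptor inputs to SYK and BTK, of which Cd79a and Cd79b are also B cell markers, 2 of 6 rose and 1 fell. Dapp1 and Pik3ap1, adaptors of phosphoinositide signalling, rose by 1.18 ± 0.11 and 1.12 ± 0.20, although a further Pik3ap1 probe set differed by -0.05. Prkcb, a protein kinase C downstream of BTK, fell by 1.37 ± 0.10, and by 1.34 on another probe set, while a dim one at -0.14 was not called. Cd79a and Cd79b, the ITAM chains of the B cell receptor, were not called: Cd79a measured 6.58, 9.40 and 6.18 in KO against 5.65 to 6.29 in WT. Cd79b measured 9.12, 10.40 and 8.60 in KO and 8.39, 8.19 and 8.28 in WT, a difference of 1.09 with groups that did not overlap. It was called at 0.57 without KO replicate 2 (limma adjusted p = 0.0333), and also when arrays were scaled to the hybridization controls or KO replicate 3 was left out.

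Of 10 regulators of SYK family kinases 8 fell and 0 rose by limma, 0 also at an unadjusted p below 0.05, with a median of -0.96. Under hybridization-control scaling 5 fell and 1 rose. Sla2 and Sla, adaptors that dampen receptor signalling, fell by 1.78 ± 0.21 (SE, n = 3 per group) and 1.00 ± 0.23, the ubiquitin ligase Cblb by 1.69 ± 0.14 and the phosphatase Ptpn22 by 1.64 ± 0.28. The fall of Sla was lost under hybridization-control scaling and without WT replicate 2. Another Sla probe set fell by 1.17, while further ones at -0.77 and -0.50 were not called. Ptpn6 and Ptpn11, the phosphatases SHP-1 and SHP-2, were not called at -0.23 and 0.08. Ptpn11 was the gene that rose under hybridization-control scaling, by 0.45. Of 7 phosphoinositide enzymes that set the lipid to which PH domains bind, Pik3cb rose by 0.73 ± 0.14, and Pik3r5 and Pik3r1 fell by 1.55 ± 0.27 and 0.71 ± 0.12, the last not called under hybridization-control scaling. That list had 4 falls when probe sets were averaged per gene, and 3 rises and 1 fall under hybridization-control scaling. Of 3 genes listed as inhibitors of BTK, Sh3bp5 fell by 1.36 ± 0.12, and Ibtk and Sh3bp5l were not called at 0.05 and -0.02. Ibtk was called at 0.41 under hybridization-control scaling. Bmx, a further Tec family kinase, measured 4.05, 3.95 and 4.11 in WT and 6.53, 4.75 and 4.91 in KO. Its groups did not overlap, and its difference of 1.36 ± 0.43 just missed the threshold (limma adjusted p = 0.0507). It was called under quantile normalization, median centring, hybridization-control scaling, array weights and the replicate block. Without KO replicate 1 the Bmx difference was 0.79 and called (limma adjusted p = 0.00331).

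Txk and Tec lie next to each other on chromosome 5 in the GRCm38.p6 gene table, and the genes beside them were examined, a choice made after the data were seen. In the window of 5 protein-coding genes on either side of the pair, 11 of 12 genes had a probe set of their own, and 8 fell and 2 rose. Without Txk and Tec, whose falls prompted the choice of window, 6 of 9 fell and 2 rose, where 18.6% of all genes fell and 18.6% rose. Cnga1, a cyclic nucleotide-gated channel subunit, fell by 2.36 ± 0.18 (SE, n = 3 per group; limma adjusted p = 1.4e-04) from 7.53 to 5.17, and Nipal1, which comes next, by 2.20 ± 0.23 from 8.57 to 6.36. Txk and Tec follow in that order, and then Slain2, which fell by 0.53 ± 0.12. Fryl, farther out, fell by 0.79 ± 0.10, and Corin and Ociad1 by 0.29 and 0.30. Nfxl1 and Ociad2, toward the edges of the window, rose by 1.26 and 1.30, and Zar1 was not called at -0.10. These values are from each gene's brightest probe set, and Corin was dim, at 3.64 in WT and 3.35 in KO. Further probe sets of Nfxl1 (0.06 and -0.04), Ociad1 (0.19), Slain2 (-0.41) and Fryl (-0.14 and -0.33) were not called. Those of Nipal1 (-2.41) and Ociad2 (1.32) and another of Fryl (-0.92) were called in the gene's direction given above. Under hybridization-control scaling Cnga1, Nipal1, Txk, Tec and Fryl still fell, by 1.99, 1.84, 2.33, 1.09 and 0.42, Slain2 was not called at -0.17, and Corin and Ociad1 turned to 0.08 and 0.06. The fall of Slain2 was not called without WT replicate 1, that of Corin was not called when any 1 array was left out, and that of Ociad1 when any 1 array other than KO replicate 2 was. With the replicate block, and with median centring, neither Corin (limma adjusted p = 0.0965 and 0.0618) nor Ociad1 (0.0787 and 0.0542) was called.

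**Figure D5:**
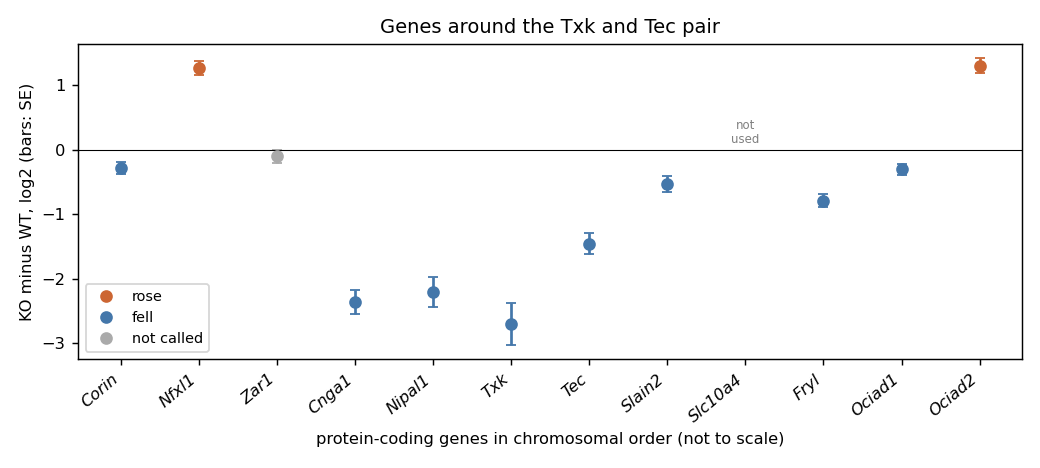
KO minus WT difference on the log2 scale (y axis, bars are the SE) of protein-coding genes in chromosomal order around Txk and Tec (x axis, not to scale), each at its brightest probe set. The 5 consecutive genes from Cnga1 to Slain2 lie below 0, and Nfxl1 and Ociad2 lie above 0.

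Promoter sequences of RefSeq on GRCm38.p6 (250 bases before to 50 after the outermost start of each gene) were found for all 5 kinases. Those of Zap70 and Syk are shown as family relatives that went opposite ways, and those of Txk and Tec as neighbours that fell together. Capitals mark the letters GGAA, the core bound by ETS factors, on either strand.
Zap70, chr1:36761548-36761847, plus strand: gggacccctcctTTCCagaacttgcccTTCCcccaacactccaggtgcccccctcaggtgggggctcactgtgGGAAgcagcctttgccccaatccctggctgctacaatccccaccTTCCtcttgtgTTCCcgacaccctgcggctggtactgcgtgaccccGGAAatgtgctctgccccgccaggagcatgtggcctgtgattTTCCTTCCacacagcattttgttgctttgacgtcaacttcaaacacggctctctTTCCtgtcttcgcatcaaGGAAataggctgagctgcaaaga
Syk, chr13:52583187-52583486, plus strand: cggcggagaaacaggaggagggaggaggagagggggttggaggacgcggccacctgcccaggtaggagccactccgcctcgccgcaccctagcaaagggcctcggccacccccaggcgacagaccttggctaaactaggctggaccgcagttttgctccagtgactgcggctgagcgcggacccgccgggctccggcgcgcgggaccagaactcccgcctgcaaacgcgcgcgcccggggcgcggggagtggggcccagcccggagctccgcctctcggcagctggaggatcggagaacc
Txk, chr5:72752728-72753027, minus strand: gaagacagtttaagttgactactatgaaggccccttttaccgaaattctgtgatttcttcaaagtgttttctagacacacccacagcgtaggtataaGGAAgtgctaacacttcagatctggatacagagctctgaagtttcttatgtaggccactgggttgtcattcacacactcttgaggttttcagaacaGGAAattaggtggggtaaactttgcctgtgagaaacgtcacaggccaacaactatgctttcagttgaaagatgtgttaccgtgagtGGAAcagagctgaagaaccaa
Tec, chr5:72868399-72868698, minus strand: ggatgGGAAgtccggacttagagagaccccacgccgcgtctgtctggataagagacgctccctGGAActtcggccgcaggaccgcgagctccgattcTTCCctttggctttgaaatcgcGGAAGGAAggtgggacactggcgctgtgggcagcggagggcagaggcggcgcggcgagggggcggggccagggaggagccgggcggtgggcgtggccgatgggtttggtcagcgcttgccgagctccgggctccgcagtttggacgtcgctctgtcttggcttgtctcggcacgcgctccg

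The GGAA core occurred 10 times in the Zap70 window, 5 times each in those of Tec and Btk, 3 times in that of Txk and 0 times in that of Syk, and 96.0% of 32851 mouse promoters of the same length hold it. All motifs were searched on both strands, and only in the outermost window of each kinase gene. RefSeq gives 3 promoters for Zap70, 2 each for Syk and Txk and 1 each for Tec and Btk. The longer form GAGGAA, which contains GGAA and resembles sites of the myeloid and B cell factor PU.1, occurred once each in the windows of Zap70 and Btk and is held by 28.3% of promoters. A motif of TCF and LEF factors, searched as CTTTGA, occurred once each for Zap70, Txk and Tec and not for Syk and Btk, against 16.0% of promoters. Of the other motifs searched, the RUNX motif, written TGTGGT, was in none of the 5 windows and is held by 16.8% of all the promoters. The GATA motif was searched as AGATAA, was likewise found in none of the windows, and is held by 11.2% of all the promoters. A TATA box was searched with the letters TATAAA, which none of the 5 windows holds and 13.6% of all the promoters do. CG dinucleotides numbered 31 for Syk and 33 for Tec, more than in 89.4% and 91.4% of promoters, but 8 for Zap70, 4 for Txk and 3 for Btk, where the median of all promoters is 7. Of these CG-rich promoters, that of Syk belongs to a gene that rose and that of Tec to one that fell.

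Genes whose profile over the 6 arrays lay closest to that of each kinase were found by the root mean square distance of values centred on each gene's own mean, among 15990 protein-coding genes. For Zap70 they were Lta, Ltb and Zgpat, at distances of 0.0728, 0.0732 and 0.0750 and with differences of -1.96, -1.88 and -2.06. Lta and Ltb encode the lymphotoxin chains. For Txk they were Cd8b1, Gpr18 and Camk4 (distances 0.136, 0.143 and 0.159), and for Tec Cd86, Camk1d and Tspyl3 (0.0814, 0.0916 and 0.0976). Syk lay nearest to Cd302, a C-type lectin receptor, at 0.0983, then to Plcg2 at 0.210 and Hfe at 0.219. Btk lay nearest to Hacd1, Dna2 and E2f8 (0.0531, 0.0568 and 0.0776). With 6 arrays in 2 groups these distances mostly measure an equal difference between the genotypes. Further probe sets of Cd302 and Hfe differed by only 0.03 and 0.06, and a further one of E2f8 by 0.15. Another Zgpat probe set fell by only 0.99, and those of Dna2 rose by 1.60 and 1.35. Of Camk1d a further probe set fell by 0.86, and another at -0.81 was not called. Those of Camk4 fell by 1.92 and 1.12 or were not called, at -0.24 and -0.17.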

How the data were processed

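RNA of splenic T cells from 3 WT and 3 KO mice was measured. The deposited values are log2 probe-set intensities made with RMA, per the submitters' processing notes (version not given in the sources used here), and were used without a filter. Of the probe sets, 64 array controls were set aside and 45037 tested; the platform annotation gave 1 gene for 34945, several for 932 and listed no gene for 9160. R 4.3.3 with limma 3.58.1 (lmFit, eBayes) was used, genotype being the only term, with two-sided p adjusted over all probe sets. Genes were represented by the probe set with the highest mean. The members and lists were chosen with earlier results of these data known. Named genes were the kinases, Bmx, up to 4 changed genes per list with the largest differences, and the 3 nearest in profile, leaving out predicted genes and receptor segments. List members without a probe set of their own were not analysed here. In simulated data for KO minus WT over 45037 probe sets, limma called 7 of 67 probe sets shifted by 0.5 on the log2 scale, 48 of 67 shifted by 1 and 56 of 66 shifted by 2, all with the right sign, and 2 unshifted ones. The simulation shifted only those probe sets, whereas in the data 13.9% of all rose and 15.5% fell. It also gave both groups the same SD, while the brightest Zap70 probe set had 0.07 in WT and 0.69 in KO. It therefore does not give the share of true differences found here. Alternatives covered normalization, a filter, the variance model, the replicate block, the threshold and leaving out arrays. No depth applies to arrays; 3 per group limit the precision. Sequences came from RefSeq tables; all 5 kinases matched by Entrez ID.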

Additional observations from a re-analysis of the deposited data

How the results depend on the processing

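The directions and calls of the brightest probe sets of Zap70, Txk, Tec, Syk and Btk were kept under repeated quantile normalization, median centring, hybridization-control scaling, a filter at the median level, array weights, trended robust moderation, the replicate block, a threshold of 0.10 and without each array. Leaving out an array in turn gave -2.27 to -1.61 for Zap70, -3.02 to -2.31 for Txk, -1.59 to -1.33 for Tec, 2.77 to 3.15 for Syk and 2.74 to 2.89 for Btk, and -4.17 to -3.41 for T cell members minus myeloid and B cell members. Under hybridization-control scaling 5 kinase probe sets rose in place of 3, and 25 pathway genes in place of 16, since that scaling moved the median of all probe sets from -0.08 to 0.29 and made 38.4% of them rise and 5.19% fall; the third Zap70 probe set turned to 0.085 there. Without WT replicate 3 that probe set was called at -0.37, which made 5 falls. With probe sets averaged per gene Zap70 differed by -1.29 and Syk by 1.58, both still called, and the T against myeloid and B value was -2.98. On the brightest probe sets that value was -4.94 with Tec moved and -5.24 with Tec left out. With the T cell marker mean taken off, the differences were -0.16 for Zap70 (0.25 and 1.56 for its other probe sets), -0.85 for Txk, 0.39 for Tec, 4.8 for Syk and 4.67 for Btk; that marker mean was itself lower in KO by 1.84. Pathway genes numbered 14 to 19 rising and 25 to 30 falling without each array. With the replicate block 3 kinase probe sets rose and 4 fell, as without it, and the Zap70 difference of -2.0 had a limma adjusted p = 0.00631. The replicate numbers were not taken to pair the mice, because they are not stated to do so. Same-numbered arrays had deviations correlated at 0.10, -0.24 and -0.20 across probe sets, and differently numbered ones at -0.16 to 0.27. With 3 arrays per group these correlations cannot show whether mice were paired. Dim probe sets, those of Syk in WT above all, limit what differences can be read.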
